A study of Arabidopsis thaliana with 20 samples.

Results

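The members are predicted sites of sRNA-guided mRNA cleavage in de-etiolating *Arabidopsis* seedlings, read from 2 degradome libraries, 1 from light and 1 from dark. Whether the named sRNA made the cut was not tested, and at poorly paired sites ends from ordinary decay cannot be told apart. A site was taken where the CleaveLand output placed it in category 0 or 1 and counted 5 or more reads at the predicted slice position. It was called the same site in both libraries where transcript and position were identical. There were 287 such sites in 283 genes, of 560 sites listed for the series at any category and depth. The light library held 208 of them and the dark library 207.

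Both libraries came from wild-type Col-0 seedlings that were stratified for 4 d and grown for 4 d in darkness at 22 °C. For the light library, seedlings were then moved to white light (100 μE), and RNA of the 1 h, 3 h, 6 h, 12 h and 24 h samples was mixed in equal amounts, so the time points cannot be told apart in it. The dark library is the seedlings at 0 h of light. With 1 library on each side there is no replicate, no difference below has a replicate check, and no p-value is given for a difference; every interval is a 95% interval that covers counting error only. The RNA was taken from seedlings in bulk, so fewer cells that express a gene and less RNA per cell cannot be told apart. No cell type is labelled.

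In plants a microRNA (miRNA) or small interfering RNA (siRNA) guides an Argonaute protein to an mRNA with which it pairs closely. The mRNA is cut opposite bases 10 and 11 of the sRNA, counted from its 5′ end, and the 3′ fragment is left with an uncapped 5′ end. Degradome sequencing reads such 5′ ends, and a cleavage site appears as a pile of reads at 1 position of a transcript that also carries scattered ends from ordinary decay. Category 0 means that the site is the single highest position of its transcript, category 1 that it shares the highest value with another position, and category 2 that it lies above the transcript's average but below the highest position. The Allen score counts mismatches between sRNA and target, with 0 for perfect pairing and higher values for poorer pairing.

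The target stretches below are those with the largest values or the clearest differences between the libraries, and they show the sequence at the predicted cut. They are written 5′ to 3′ as RNA, as the CleaveLand records give them, with capitals from the slice position to the 3′ end, that is, the start of the sequenced fragment. The SPL genes encode squamosa promoter-binding transcription factors of phase change and flowering. Their sites matched sRNAs of the miR156 family:
SPL9 site: ugugcucucucUCUUCUGUCA
SPL10 site: agugcucucucUCUUCUGUCA
SPL11 site: gugcucucucUCUUCUGUCA
SPL9 query in light: ugacagaagAGagugagcaca
In the query, the capitals are bases 10 and 11. On TAIR10 coordinates the SPL9 stretch lies at chr2:17589065-17589085 (plus strand) in exon 3 of 3, the SPL10 stretch at chr1:9505541-9505561 (minus strand) in exon 5 of 5, and the SPL11 stretch at chr1:9503618-9503637 (plus strand) in exon 5 of 5. All 3 are in coding sequence.

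The growth-regulating factor (GRF) genes encode transcription factors that promote cell proliferation in growing leaves, and their sites matched sRNAs of the miR396 family:
GRF1 site: guucaagaaAGCCUGUGGAA
GRF2 site: guucaagaaAGCCUGUGGAA
GRF7 site: guucaagaaAGCAUGUGGAA
GRF query: uuccacagcUUucuugaac
The GRF1 stretch lies at chr2:9729946-9729965 (plus strand) in exon 3 of 4, the GRF2 stretch at chr4:17726404-17726423 (minus strand) in exon 3 of 4, and the GRF7 stretch at chr5:21795147-21795166 (plus strand). These stretches are also coding, and those of GRF1 and GRF2 are identical.

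A further set matched sRNAs of the miR408 family, which is known for its targets among copper proteins:
UCC2 site: gagccaggguggAGUCAGUGCU
AT1G72230 site: aggaccaggcuagAGGCAGUGCU
AT2G47020 site: gagccagggaagAGGCAGUGCA
ARPN site: uggccaagggaagAGGCAGUGCA
Query of AT1G72230, AT2G47020 and ARPN: ugcacugccUCuucccuggcuu
The UCC2 stretch (chr2:18462150-18462171, minus strand), the AT1G72230 stretch (chr1:27189136-27189158, plus strand) and the AT2G47020 stretch (chr2:19319934-19319955, minus strand) lie in 3′ UTRs. The ARPN stretch (chr2:827697-827719, minus strand) is in coding sequence.

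The same sites carried most of the reads on both sides. Of the 287 sites, 128 (44.6%) were in both libraries, 80 (27.9%) in light only and 79 (27.5%) in dark only. The 128 shared sites were 61.5% of the light sites and 61.8% of the dark sites. They held 96.6% of all site reads in light and 96.9% in dark. The median shared site had 58 reads in light and 72 reads in dark. The median site found in light only had 12 reads, and that found in dark only had 14. A shared site had to pass the read minimum and the category rule in both libraries, and deeper sites pass more easily. The larger read counts of shared sites are therefore partly set by the rule, and how far was not tested. By gene, 131 genes had a site in both libraries, and in 3 of these the positions differed.

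Among the shared sites, 120 were category 0 in both libraries, 2 were category 1 in light alone, 4 were category 1 in dark alone and 2 were category 1 in both. The CleaveLand output named the same query sRNA in both libraries for 115 of them. The query shared a stretch of at least 16 nt with a listed miRNA for 57 of the shared sites (44.5%), and at least 17 nt with a listed phasiRNA for 2. The same measure gave 8 of the 80 sites in light only (10%) and 15 of the 79 sites in dark only (19%) for miRNAs.

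Pairing differed in the same order. The median Allen score was 7.5 for sites in light only, 6.5 for sites in dark only and 4.0 for shared sites. A score of at most 4 was found at 6 of 80, 13 of 79 and 72 of 128 of them. Coding sequence held 60 of 80 placed sites in light only, 49 of 78 in dark only and 90 of 126 shared sites, and a 3′ UTR held 5, 13 and 17. Loci annotated as pseudogenes held 11, 7 and 10. The plot of Allen scores shows the poorer pairing of sites in light only and in dark only beside shared sites. It also shows the light sites of category 2, with a median score of 2. All 139 light records of category 2 had a p-value of 0.0494 in the CleaveLand output, just under its limit of 0.05. Their scores are therefore not compared with those of the other classes. How far the p-value limit set the scores of any class was not tested.

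**Figure D1:**
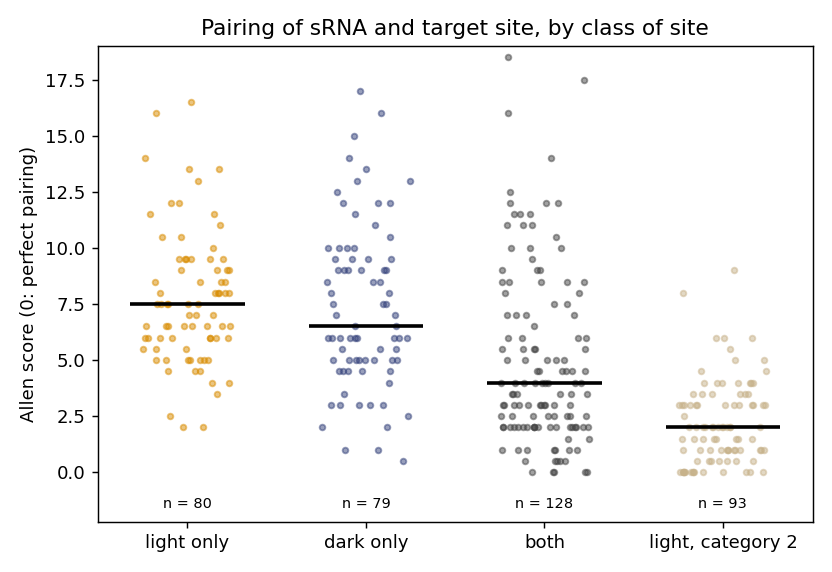
Allen score (vertical axis, 0 for perfect pairing) of each site by class: light only, dark only, both, and the light sites of category 2. Each point is a site and the bar is the median (7.5, 6.5, 4.0 and 2.0).

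Reads at the shared sites were compared per mapped read, since the light library had 46178774 mapped reads and the dark library 48766970. The median light-over-dark ratio of reads at the 128 shared sites was 0.86, and that of all reads on their transcripts was 0.83. In light, 54 sites were above a ratio of 1 and 74 were below it. The ratio was 2-fold or more higher in light at 13 sites (10.2% of the 128) and 2-fold or more lower in light at 24 sites (18.8%). The median transcript ratio was -0.26 on the log2 scale, and when reads were instead scaled so that it was 1, the counts were 17 higher and 6 lower. Under that scaling 66 sites were above 1 and 62 below it. Of the 13 sites higher in light, 2 had a query related to a miRNA and 5 had an Allen score of at most 4. Of the 24 lower in light, 13 had such a query and 19 such a score.

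Sites with a miRNA-related query lay lower in light than the others. Their median ratio was 0.67 over 57 sites, of which 44 were below 1, whereas it was 1.06 over the 69 shared sites whose query was related to neither a miRNA nor a phasiRNA, of which 28 were below 1. Under the scaling to a median transcript ratio of 1 these medians were 0.80 and 1.27, with 40 of 57 and 20 of 69 sites below 1. They are descriptions of 1 library pair. The miRNA-related sites also had more reads, with medians of 268.0 in light and 399.0 in dark, against 37.0 in light and 35.0 in dark for the other queries.

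**Figure D2:**
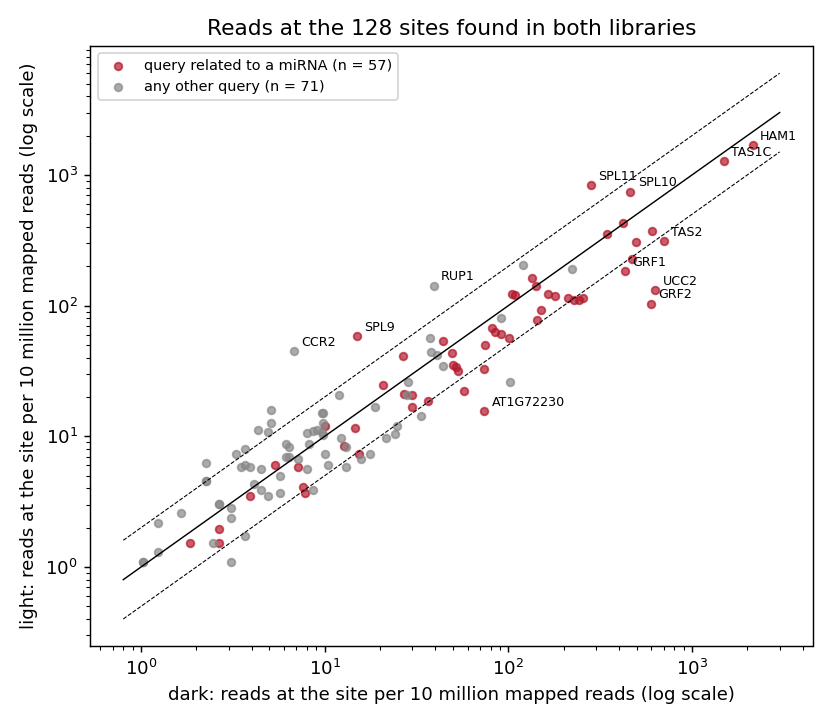
Reads at the 128 shared sites per 10000000 mapped reads, light on the vertical and dark on the horizontal axis (both log scales). The solid line is a ratio of 1 and the dashed lines are 2-fold; red points have a miRNA-related query (57 sites), grey points any other query. SPL9, SPL11, CCR2 and RUP1 lie above the upper line, and GRF2, UCC2, AT1G72230 and TAS2 below the lower one.

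The second measure was the share of a transcript's reads that lay at the site, which scaling by library size does not change. The median share was 16.2% in light and 15.3% in dark, and the median difference site by site was -0.27 percentage points. The order of the medians turned under 3 other settings: with 10 or more reads at the site it was 14.4% in light and 15.3% in dark, with a p-value of at most 0.01 in the CleaveLand output 18.8% in light and 22.4% in dark, and with queries of 20 to 24 nt 13% in light and 15% in dark. The share was higher in light at 57 sites, lower at 70 and equal at 1. The difference was within 5 points at 101 sites and within 10 points at 111. The Wilson interval of light lay above that of dark at 16 sites (12.5%) and below it at 16 (12.5%).

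SPL transcripts lay on both sides of a ratio of 1. Of 11 listed SPL genes, 9 had a shared site. A ratio above 1 was found in 5 of these and below it in 4, with 2 of the 9 higher and 2 lower by 2-fold or more, beside 10.2% and 18.8% of all shared sites. Scaled to a median transcript ratio of 1, SPL3 turned above 1 and none was lower by 2-fold. The SPL9 site had 268 of 415 reads in light (64.6%, 59.9 to 69.0) and 73 of 168 reads in dark (43.5%, 36.2 to 51.0). Both its share and its reads were higher in light, with a ratio of 3.88 (2.98 to 5.09) at the site and 1.63 for the reads elsewhere on the transcript. The SPL11 site had 3847 of 4212 reads in light (91.3%, 90.4 to 92.1) and 1378 of 1605 in dark (85.9%, 84.1 to 87.5). Its site ratio was 2.95 (2.77 to 3.14), and that of its other reads 1.70. The SPL10 site had 3433 of 4227 reads in light (81.2%) and 2253 of 3199 in dark (70.4%), so that its site ratio was 1.61 while its other reads had a ratio of 0.89.

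SPL15 had 190 reads in light and 130 in dark, at shares of 54.3% and 55.6%. SPL2 differed little, with 1972 of 3526 reads in light and 2058 of 3686 in dark and a ratio of 1.01 (0.95 to 1.08). On the other side, SPL5 had 66 reads in light and 163 in dark, a ratio of 0.43 at nearly the same share (71.7% in light, 74.4% in dark). SPL3 had 877 reads (73.0%) in light and 1083 (77.0%) in dark. SPL13A had 525 reads in light and 1029 in dark, and SPL13B had 511 in light and 1104 in dark. The 20 nt from the slice position on are the same in SPL13A and SPL13B, so their reads cannot be assigned to 1 of the pair. The sRNA queries of SPL3 and SPL5 shared fewer than 16 nt with any listed miRNA.

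The GRF sites were lower in light. All 7 shared sites of the list of GRF genes and AT1G10120 (bHLH74, a basic helix-loop-helix transcription factor) had fewer reads in light per mapped read, with a median ratio of 0.51 and 3 of 7 lower by 2-fold or more, beside 18.8% of all shared sites. Scaled to a median transcript ratio of 1, all 7 stayed below 1, and 1 of 7, GRF2, was lower by 2-fold. The share was also lower in light in 6 of 7, beside 54.7% of all shared sites. Ratios below 1 were found at 57.8% of all shared sites and at 77.2% of those with a miRNA-related query. GRF2 had 479 of 935 reads in light (51.2%, 48.0 to 54.4) and 2920 of 4527 in dark (64.5%, 63.1 to 65.9). Its site ratio was 0.17 (0.16 to 0.19) and the ratio of its other reads was 0.30, so that reads fell along the whole transcript and more at the site. GRF1 had 850 reads in light and 2100 in dark, at shares of 36.1% in light and 39.1% in dark. GRF3 had 152 reads (14.4%) in light and 357 (19.4%) in dark.

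Other shared sites with a miR396-related query did not go that way. FLU, a negative regulator of chlorophyll synthesis, had 247 reads (10.2%) in light and 214 (10.7%) in dark, a ratio of 1.22 (1.01 to 1.47), and AT2G38370 had a ratio of 1.14 (0.64 to 2.02). Over all 9 shared sites with such a query, 7 were below 1 and 2 above it.

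Among the less covered members of the GRF list, AT1G10120 had 426 reads in light and 735 in dark, GRF9 had 86 in light and 178 in dark, and GRF8 had 19 in light and 37 in dark. GRF4 had 7 reads in light and 9 in dark, and its ratio interval of 0.26 to 2.48 spans 1. The GRF7 site was found in dark only, with 208 of 3780 reads (5.5%). GRF7 has no record in the light output, so its light reads cannot be read from it.

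**Figure D3:**
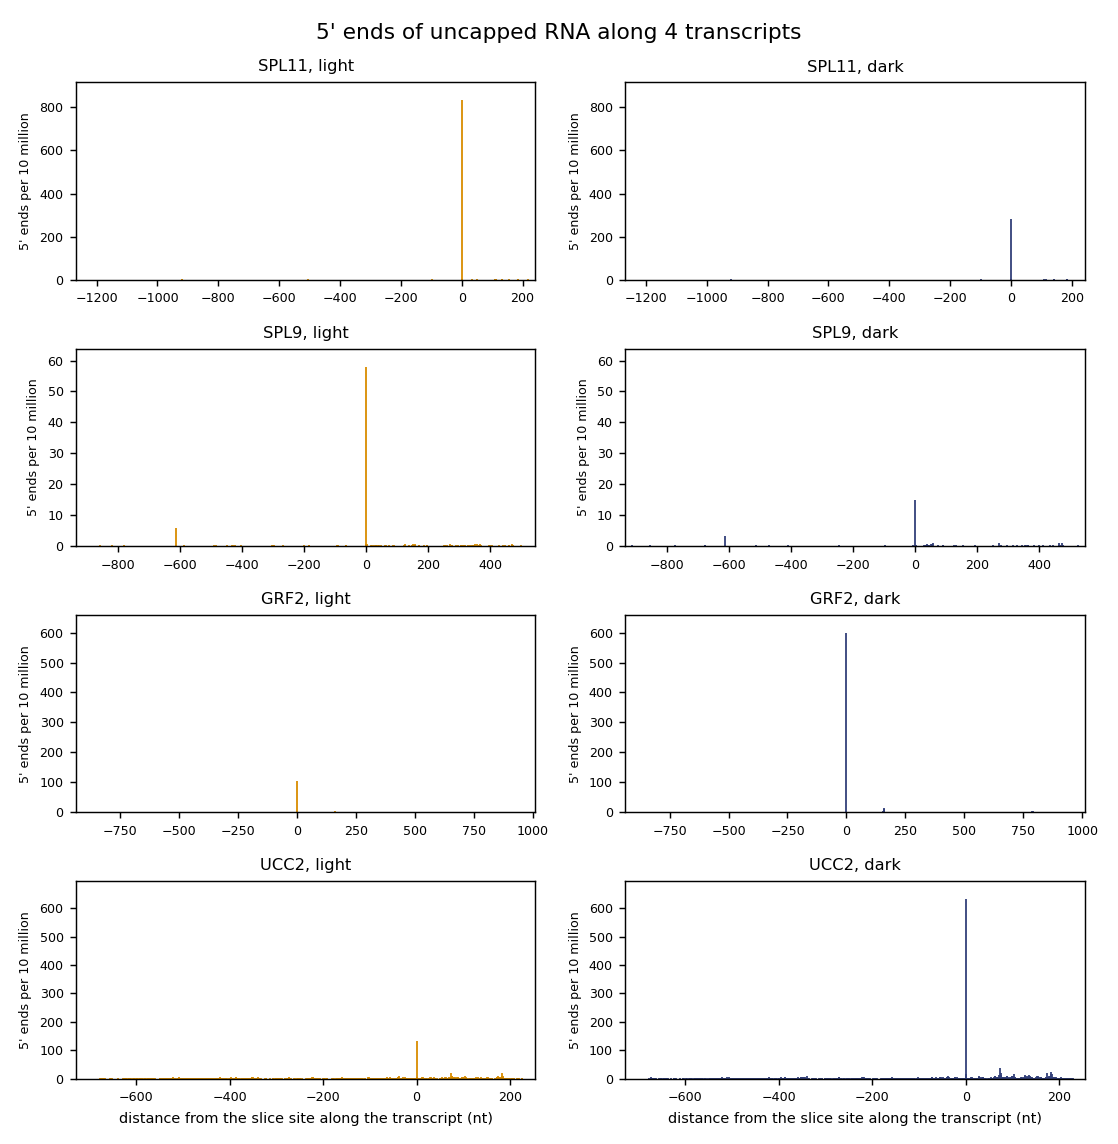
Reads of 5′ ends per 10000000 mapped reads (vertical axis) along the SPL11, SPL9, GRF2 and UCC2 transcripts, by distance from the slice site in nt (horizontal axis), light on the left and dark on the right with the same scale in each pair. The peak at 0 is 833 in light and 283 in dark for SPL11, 58 and 15 for SPL9, 104 and 599 for GRF2, and 131 and 631 for UCC2.

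The 4 shared miR408 sites had fewer reads in light per mapped read. So had 57.8% of all shared sites and 77.2% of those with a miRNA-related query. The 4 miR408 sites also stayed below 1 when scaled to a median transcript ratio of 1. UCC2, a uclacyanin (a small blue copper protein), had 604 of 6649 reads at its site in light (9.1%, 8.4 to 9.8) and 3079 of 12353 in dark (24.9%, 24.2 to 25.7). The site ratio was 0.21 (0.19 to 0.23), while the other reads of the transcript had a ratio of 0.69. AT1G72230, a cupredoxin-family gene, had 72 of 1081 reads in light (6.7%) and 360 of 1717 in dark (21%), with ratios of 0.21 at the site and 0.79 elsewhere. In both genes the site fell more than the rest of the transcript. AT2G47020, annotated as a peptide chain release factor, had 17 reads in light and 38 in dark, at shares of 7.1% in light and 11.2% in dark. ARPN (plantacyanin, another blue copper protein) went the other way in share, with 311 reads (67.5%) in light and 399 reads (61.9%) in dark. ARPN was the 1 gene of 11 in the list of copper proteins with a shared site, and UCC2 and AT1G72230 are outside that list.

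NF-YA genes, which encode subunits of the CCAAT-binding NF-Y transcription factor and carry miR169 sites in the 3′ UTR, were lower in light at shared sites. All 6 shared sites of the 7 listed genes had a ratio below 1, from 0.45 to 0.75, beside 57.8% of all shared sites. Of shared sites with a miRNA-related query, 77.2% were below 1. All 6 had a lower share in light, beside 54.7% of all shared sites. The differences were -11.2 to -2.59 points, with a median difference of -4.21 points. All 6 also stayed below 1 when scaled to a median transcript ratio of 1. NF-YA3 had 529 of its reads at the site in light (53.4%) and 1247 in dark (57.4%). NF-YA9 had 34 reads (17.5%) in light and 75 reads (28.7%) in dark. NF-YA10 had the highest share of the group, with 290 reads (77.3%) in light and 410 (79.9%) in dark. NF-YA5, the seventh gene, had its site in dark only, with 136 of 448 reads (30.4%), and has no light record.

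The sites of the HAM, TCP and GAMYB-like groups were likewise below 1 under both scalings. Per mapped read, so were 57.8% of all shared sites and 77.2% of those with a miRNA-related query. HAM genes, GRAS transcription factors that maintain shoot meristems and are cut through miR171, included the most read site of all: HAM1 had 7757 of 10479 reads in light (74.0%) and 10462 of 14196 in dark (73.7%), a ratio of 0.78 at an almost equal share. HAM2 had 1409 reads (46.4%) in light and 2427 (45.1%) in dark. HAM3 had 514 reads (28.8%, 26.8 to 31.0) in light and 1186 (41.7%, 39.9 to 43.5) in dark, so in this member the share was lower too. The TCP genes are regulators of leaf shape cut through miR319. All 3 of those with a shared site had a lower ratio and a lower share, beside 54.7% of all shared sites with a lower share. TCP24 had 102 reads (16.9%) in light and 279 (27.4%) in dark, TCP3 had 162 in light and 242 in dark, and TCP4 had 78 in light and 145 in dark. MYB33 and MYB65, GAMYB-like factors of gibberellin signalling cut through miR159, had ratios of 0.67 and 0.66, with shares slightly higher in light (16.2% against 15.7% in dark, and 27.3% against 25% in dark). Their 20 nt after the slice position also occur in another gene.

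**Figure D4:**
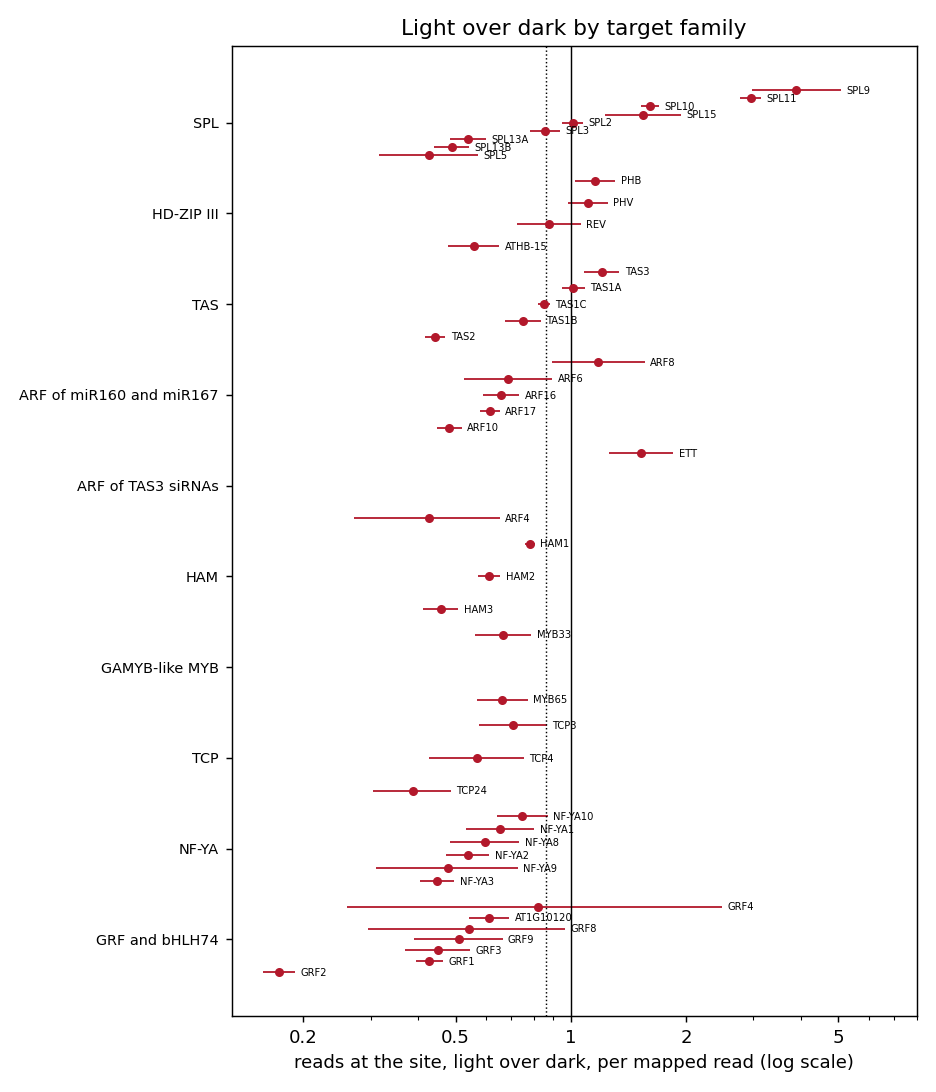
Light-over-dark ratio of reads at each shared site per mapped read (horizontal axis, log scale), by target family. Points are sites with their 95% counting interval; the solid line is 1 and the dotted line is the median of all 128 shared sites, 0.86. The GRF, NF-YA, TCP, HAM and MYB points lie below 1, and the SPL points spread from 0.43 to 3.88.

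Auxin response factor (ARF) genes were mixed. The miR160 sites of ARF10, ARF16 and ARF17, repressors among the auxin response factors, had ratios of 0.48, 0.66 and 0.62. ARF17 had 1721 of 2098 reads in light (82.0%) and 2954 of 3663 in dark (80.6%), and ARF10 had 1050 reads (26.4%) in light and 2301 (34.0%) in dark. Of the miR167 sites, ARF8 had 113 reads in light and 101 in dark, and ARF6 had 95 in light and 146 in dark. ETT (ARF3) and ARF4 are cut by siRNAs made from TAS3 transcripts. ETT had 263 reads in light and 182 in dark, a ratio of 1.53 (1.26 to 1.85), whereas ARF4 had 31 in light and 77 in dark, a ratio of 0.43 (0.27 to 0.65).

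The class III HD-ZIP genes, which set leaf polarity and vascular pattern and are cut by miR165 and miR166, did not share a direction, and REV turned above 1 when scaled to a median transcript ratio of 1. PHB had 562 reads in light and 513 in dark, PHV 556 in light and 530 in dark, REV 199 in light and 240 in dark, and ATHB-15 261 in light and 493 in dark. The PHB and PHV stretches after the slice position also occur in another gene, so these reads are uncertain between copies.

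TAS transcripts are non-coding RNAs whose cleavage starts the production of phased siRNAs. TAS1C had 5871 of 6694 reads in light (87.7%) and 7282 of 8280 in dark (87.9%), a ratio of 0.85 that became 1.02 when scaled to a median transcript ratio of 1. TAS1A had 1618 in light and 1683 in dark, and TAS1B had 570 in light and 802 in dark. TAS2 stood apart in level but not in share: 1436 of 2080 reads were at its site in light (69.0%) and 3427 of 4963 in dark (69.1%), a ratio of 0.44 at the site and 0.44 elsewhere. TAS3, cut through miR390, had 749 reads (16.4%) in light and 657 (13.8%) in dark. AGO2, an Argonaute gene with a miR403 site in its 3′ UTR, had 650 reads (61.0%) in light and 691 (62.5%) in dark, a ratio of 0.99 (0.89 to 1.11), or 1.19 under the other scaling.

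Of 20 gene lists, 14 had a shared site. The AP2-like, NAC, TIR1/AFB, SAMT-like, phosphate and sulfate, and light-signalling lists had none, nor a site in 1 library or of category 2, which says only that none of their genes met the rule in these libraries. The list taken by product names of photosynthesis and the chloroplast held 3 genes with a record. AT2G38370 had 28 reads in light and 26 in dark, and GUN5 (a magnesium chelatase subunit of chlorophyll synthesis) and AT1G77090 had sites of category 2 only. In the silencing list AGO2 had a shared site and AGO1 a site of category 2 only, with 19 reads in light.

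The largest differences in share outside the miRNA families came from less well paired queries. CCR2, a cinnamoyl-CoA reductase of phenylpropanoid metabolism, had 206 of 626 reads at its coding site in light (32.9%, 29.3 to 36.7) and 33 of 287 in dark (11.5%, 8.3 to 15.7). The site ratio was 6.59 (4.55 to 9.83), beside 1.75 for its other reads, and the query had an Allen score of 5.5:
CCR2 site: aaucgacgGUUGCGAUGG
CCR2 query: ucauugcaaUUguugguc
AT4G12640, which encodes a protein with an RNA recognition motif, had 52 of 321 reads in light (16.2%) and 21 of 451 in dark (4.7%), at an Allen score of 7.0. UGD3, a UDP-glucose dehydrogenase of cell wall sugar synthesis, had 203 reads (19.1%) in light and 185 (12.1%) in dark at a score of 9.0. With SPL9 and SPL10 these are the 5 largest rises in share among the 117 shared sites with 50 or more transcript reads in each library. The 5 largest falls were UCC2, GRF2, AT1G72230 and a pair of uncharacterised loci. Of that pair, AT5G34868 had 28 of 95 reads in light (29.5%) and 51 of 97 in dark (52.6%), and AT4G37409 had 40 of 90 in light (44.4%) and 40 of 68 in dark (58.8%). Their Allen scores were 7.5 and 10.

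**Figure D5:**
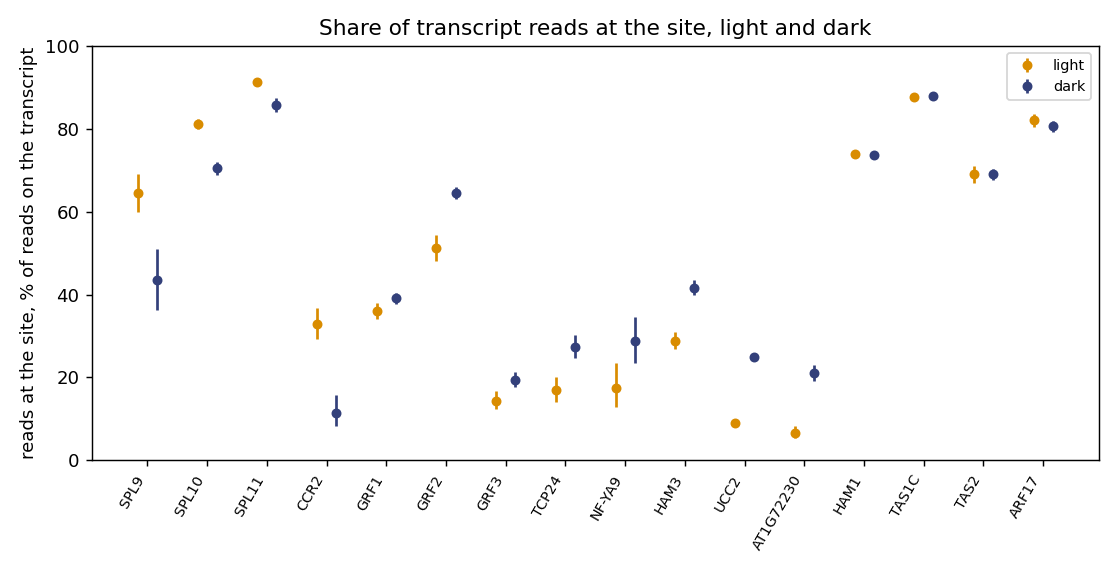
Share of transcript reads at the site (vertical axis, percent) for 16 shared sites, light at left and dark at right of each pair, with 95% Wilson intervals. SPL9, SPL10, SPL11 and CCR2 are higher in light, GRF1, GRF2, GRF3, TCP24, NF-YA9, HAM3, UCC2 and AT1G72230 are lower (with overlapping intervals for GRF1), and HAM1, TAS1C, TAS2 and ARF17 have overlapping intervals.

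RUP1, a WD40 protein that represses UV-B photomorphogenesis, had more reads in light at the site and, by a larger ratio, elsewhere on the transcript. It had 655 of 6135 reads in light (10.7%, 9.9 to 11.5) and 191 of 1294 in dark (14.8%, 12.9 to 16.8). The site ratio was 3.62 and that of its other reads 5.25, and the query had an Allen score of 12.5. PDX2, an enzyme of vitamin B6 synthesis, had 73 reads (3.0%) in light and 25 (2.4%) in dark, with a ratio of 3.08 (1.93 to 5.07) and an Allen score of 3.0. LBA1, the RNA helicase of nonsense-mediated decay, had 58 reads (3.5%) in light and 25 (1.3%) in dark, at a score of 11.5. The MIR822 precursor, a miRNA gene, had 121 reads (37.0%) in light and 497 (42.3%) in dark, with ratios of 0.26 at the site and 0.32 elsewhere.

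The other sites past 2-fold had fewer reads. Higher in light were RPP1 and AT3G44670, disease resistance genes of the TIR-NBS-LRR class, with 34 and 37 reads in light against 16 and 18 in dark. The 20 nt from the slice position on are also found in another gene for both, so their reads are uncertain between copies. AT5G20120 had 50 reads (8.6%) in light and 24 (4.0%) in dark, and AT3G55605, a mitochondrial glycoprotein family gene, had 29 (11.6%) in light and 11 (4.7%) in dark. UBC7, a ubiquitin-conjugating enzyme, and AT3G30837, an uncharacterised locus, each had 21 in light and 11 in dark, with a ratio interval of 0.93 to 4.63 that spans 1.

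Lower in light were AT5G64640, of the pectin methylesterase inhibitor superfamily, with 48 reads in light and 117 in dark, and AT4G16900, a further TIR-NBS-LRR gene, with 34 in light and 86 in dark. AT3G06435 had 27 reads in light and 64 in dark at a perfectly paired site in its 3′ UTR, and AT1G14940, of the polyketide cyclase superfamily, had 18 in light and 42 in dark. AT1G47485, which encodes a CEP signalling peptide precursor, had 8 reads (72.7%) in light and 18 (75.0%) in dark, and AT1G40100 had 5 in light and 15 in dark. The ratio intervals of AT1G47485 (0.18 to 1.13) and AT1G40100 (0.10 to 1.02) span 1, whereas that of AT5G64640 does not (0.30 to 0.61).

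Sites in 1 library had lower median reads than shared sites, which the rule for shared sites favours. Most of them were not measurable in the other library. There were 20 or more reads at 27 of the sites in light only and 29 of those in dark only. Fewer than 10 reads were counted at 35 of the 80 sites in light only and 26 of the 79 in dark only. The output gives the reads of a transcript only where that library listed a site on it, and the transcript was listed in the other library for 5 of 80 sites in light only and 9 of 79 in dark only. At all 14 of these, the other library had 1 or more reads at the very position, and at 8 it had 5 or more. The position itself was listed in the other library at 5 of them, below the minimum of 5 reads. For the other 145 sites the other library's reads cannot be read from the files, and a site in 1 library is not a site shown to be absent from the other.

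The 14 readable sites differed in how close the libraries were. AT1G63080, a pentatricopeptide repeat (PPR) gene of a cluster on chromosome 1, had a site in light only at position 1020 and another in dark only at position 1512:
AT1G63080 site at 1020: uccaaauguagUCACUUUCAA
AT1G63080 site at 1512: uguauucgaguAUCUGCAAAA
At 1020 there were 70 of 734 reads in light (9.5%) and 71 of 869 in dark (8.2%), and at 1512 there were 68 in light (9.3%) and 109 in dark (12.5%). The positions were near equal in light only, and which of them was the higher differed between the libraries. AT1G62910, another PPR gene, had 32 reads in light and 28 in dark at position 989, and 14 in light and 31 in dark at position 997. The GSTF8 site (a glutathione S-transferase), found in dark only, had 106 of 13026 reads in light and 45 of 5999 in dark, 0.81% and 0.75% of the transcript. GGT4 had 33 reads in light and 17 in dark at its site in light only, and 22 in light and 22 in dark at its site in dark only, 1 nt away. HB-8, the fifth class III HD-ZIP gene, had 18 reads (6.2%) in light and 31 (6.8%) in dark.

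The other readable sites had fewer than 10 reads in each library. Found in light only, AT5G48205 had 5 of 24 reads in light and 1 of 21 in dark, and AT1G54750 had 7 of 19 in light and 3 of 6 in dark. Found in dark only, AT1G34044 had 2 of 31 reads in light and 9 of 79 in dark, and AT2G06390 had 2 of 8 in light and 7 of 19 in dark. TAR1, an aminotransferase related to auxin synthesis, had 4 of 18 in light and 5 of 23 in dark, and AT2G21550 had 3 of 45 in light and 5 of 46 in dark.

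Of 13 genes annotated as PPR proteins, 3 had a shared site. A further 2 had a site in light only and 6 a site in dark only, with AT1G62910 and AT1G63080 counted in both. Several were matched by queries related to miR161, and in some the 20 nt from the slice position on occur in up to 4 genes, so that these reads cannot be assigned to 1 locus. RPF3 and AT1G63130, annotated as tetratricopeptide-like and so outside this list, had ratios of 0.48 and 0.45. The paper labels RPF3 as a PPR gene.

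Sites with 50 or more reads numbered 6 in light only and 10 in dark only. In light only, AT4G36530 had 219 of 6019 reads (3.6%), AT2G29290 had 88, LEA14 (a late embryogenesis abundant protein) had 86, AT1G63080 had 70, WIH1 had 58 and BAM2 (a receptor kinase of meristem signalling) had 57. Their Allen scores were 6.0 to 13.5 except for AT1G63080, with 2.0. In dark only, GRF7 and NF-YA5 led, and were followed by AT3G25840 with 129 reads, AT2G26210 with 112, AT1G63080 with 109, RS27A (a ribosomal protein) with 88, AT5G02480 with 74, ACHT5 (a thioredoxin-like protein) with 67, AT4G08850 with 53 and HSP70 (a heat shock chaperone) with 52. MYB97, a further GAMYB-like gene, had 30 reads (30.6%) in dark only. These leading sites in light only had no member of the miRNA target families apart from AT1G63080.

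Category 2 sites were kept out of the comparison of sites because only the light output has them. Their records did count where the light reads of a transcript were looked up, as for GSTF8. There were 139 such records in light and 0 in dark, and 93 of those in light had 5 or more reads, in 63 genes. All 139 had the same p-value of 0.0494 in the CleaveLand output, just under its limit of 0.05, and the reads of dark at most of these positions were not listed. The median share of the 93 sites was 0.40% and the median Allen score 2.0. The transcript was listed in dark for 27 of them, and 25 of these had 5 or more dark reads at the position. The deepest was at AT1G69170, an SPL gene with 365 of 1137 reads in light (32.1%), below a highest position of 472. AT4G06477, an uncharacterised locus with 15 category 2 sites, had 332 of 11059 reads, and 18S ribosomal RNA had 163 of 173141. For TAS1C, a further site at position 473 had 139 reads in light and 136 at the same position in dark.

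The sRNA libraries of the series give the levels of the guiding miRNAs in RPM (reads per 1000000 reads), as the mean of the 5 light time points and the 0 h level within each of 3 replicates. The third replicate was made with another small RNA kit than the first and second, and it stood apart: across 207 miRNAs, Spearman's rho at 0 h was 0.98 between replicates 1 and 2 but 0.51 between 1 and 3 and 0.52 between 2 and 3 (across miRNAs, which are not replicates). For miR156a-5p, replicates 1, 2 and 3 had 3252, 3085 and 70034 in light, and 4566, 4220 and 76467 in dark. The light-over-dark ratios were 0.71, 0.73 and 0.92. They were 1.37, 1.81 and 1.16 for miR157a-5p, whose family is related to queries at category 2 sites of SPL10 and SPL15. Of the miR171 family, miR171a-3p had ratios of 1.20, 1.63 and 1.16, and miR171b-3p had ratios of 0.63, 0.89 and 1.24. They were 0.92, 0.91 and 1.03 for miR396a-5p, and 0.69, 0.70 and 1.76 for miR396b-5p. They were 0.90, 0.80 and 0.99 for miR408-3p, 1.37, 1.16 and 1.00 for miR169a-5p, and 0.72, 0.81 and 1.28 for miR319a. For miR173-5p and miR390a-5p the level was lower in light in every replicate (0.76, 0.75 and 0.83, and 0.77, 0.70 and 0.74). So it was for miR156a-5p and miR408-3p, and for miR160a-5p (0.97, 0.96 and 0.62) and miR167a-5p (0.93, 0.82 and 0.92). For miR159a the ratios were 0.76, 0.97 and 2.09, and for miR166a-3p 0.81, 0.82 and 1.09. For miR403-3p they were 0.64, 0.64 and 1.15, and for miR168a-5p 0.85, 0.81 and 1.58. Several of the miRNAs given here differ in direction between replicates. Whether miRNA level, transcript level or both moved with the reads at the sites was not tested.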

How the data were processed

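Degradome libraries of light (1, 3, 6, 12 and 24 h mixed) and dark seedlings were sequenced as 5′ ends of uncapped RNA, 1 library each. The authors mapped 46178774 light reads (85.1%) and 48766970 dark reads (81.5%) to TAIR10 cDNAs and deposited CleaveLand records, with reads per transcript position, p-value limit of 0.05 and category limit of 2; the file headers name CleaveLand4 4.3 while the methods name a later release. Bowtie 1.0.0 is in the submitters' processing notes. The sRNA levels were deposited in RPM (mapped-read scaled) by the authors. Here records were read with Python 3.11.15, and shares of transcript reads received 95% Wilson intervals and ratios exact binomial intervals (scipy 1.17.1). Reads were scaled by the mapped totals of the study. Positions were placed on TAIR10.1 by exact match. The parser was tested on simulated data. Sites named in the text are the 10 most read, the 5 largest rises and falls in share, one-sided sites with 50 or more reads, readable one-sided sites, family members and the 3 deepest category 2 sites; others were chosen after their values were seen. The members and gene lists were chosen with earlier results of these data known. Alternatives were set for reads, category, p-value, query length, site matching and scaling.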

Additional observations from a re-analysis of the deposited data

How the results depend on the processing

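Of 59 values recomputed under other settings, 38 kept within their tolerance and 21 moved, and each setting differs from the reported one in which sites it keeps or how it scales them. With 10 or more reads at the site, 47 sites were in light only and the median share was 14.4% in light and 15.3% in dark, and with no minimum of reads 141 were in light only and 144 in dark only. With category 0 only, 52 were in light only, and with category 2 added, 173. With a p-value of at most 0.01, 77 sites were in both libraries, 27 in light only and 25 in dark only, the median share was 18.8% in light and 22.4% in dark, 8 sites were 2-fold higher in light and 9 one-sided sites were readable. With queries of 20 to 24 nt, 80 sites were in both and 47 in light only, the median share was 13% in light and 15% in dark, and 6 sites were 2-fold higher. As a ratio of site reads to all other reads, the median was 19.3% in light and 18.1% in dark. Scaled to a median transcript ratio of 1, 6 sites were 2-fold lower in light, and at 1.5-fold 25 were higher and 43 lower. No paired analysis was possible because each condition has 1 degradome library. The limits are the single library pair, the mixed light times, the transcripts that 1 output does not list, and reads that identical stretches of 2 genes share; intervals cover counting error only.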
